A study of Mus musculus with 6 samples.

Results

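Gene expression was profiled in mouse URE cells carrying a control hairpin, as the 3 shControl arrays of a series of 6 arrays. These 3 arrays were chosen by their labels alone, and the other 3 arrays, of cells with a hairpin against Hlx, were not analysed here. URE is a leukaemia cell line of the mouse. Its name is not expanded in the labels, and as background it is known as a line from mice that lack an upstream regulatory element of Spi1, the gene for the transcription factor PU.1. The sources do not say whether the line is 1 clone. All 3 samples received a lentiviral vector that encodes a green fluorescent protein and a hairpin targeting luciferase, a firefly enzyme, during incubation with mouse interleukin-3, interleukin-6 and stem cell factor. They were sorted for the fluorescent protein, and were grown in M5300 medium with serum and supernatants of WEHI and BHK cells. The study's question was the role of the homeobox gene Hlx in differentiation of blood cells and in tumours, and these arrays are its reference state. Each of 19938 genes was read from 1 probe set, chosen as the brightest on average among those annotated with exactly 1 symbol.

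Granulocytes arise from stem cells through a series of progenitors. At the promyelocyte stage the cell makes the primary granules, which hold myeloperoxidase and the serine proteases neutrophil elastase, proteinase 3 and cathepsin G. Myelocytes and later stages turn to the secondary granules, with lactoferrin and cathelicidin, and then to gelatinase granules and the receptors of the mature neutrophil. The factors PU.1, C/EBPalpha, RUNX1, MYB and GFI1 control these steps, and blocks in them are a known feature of acute myeloid leukaemia. Interleukin-3 and stem cell factor, which act through the receptors IL3RA with CSF2RB and KIT, are standard growth factors for myeloid progenitors in culture, and WEHI and BHK supernatants are widely used as sources of them.

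Values are log2 signals, and a mean is given with the SD over the 3 arrays (n = 3 throughout). A gene's signal depends on how well its own probes bind as well as on its RNA, so a rank places a signal among all signals and does not order genes by RNA amount. The files used here give no detection call. A signal was therefore set against 1027 olfactory receptor genes, which are silent in most tissues, and called above the olfactory level when it passed the 95th percentile of those genes on each of the 3 arrays (6.66 to 6.76). By this rule 12248 of 19938 genes, or 61.4%, were above. A second, stricter level came from 84 genes of liver, pancreas, eye, skin, muscle, brain and other organs, by the same rule, and it lay at 7.70 to 7.82. Of all genes 44.6% passed it, and 10% form the top 10% of genes by definition, with mean signals from 10.69. Of the 84 silent-tissue genes themselves, 27 (32.1%) passed the olfactory level, so the olfactory level alone does not set a list with such a share apart from genes of other organs.

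The 3 arrays were close to each other. Pairwise Pearson correlations across genes, which are not independent replicates, were 0.998134, 0.99854 and 0.998617, and array medians ran from 7.36 to 7.44. The wide spread of signals between genes raises such correlations. The deposited processing made the arrays' distributions alike, so close medians are largely set by it. The SD of the median gene was 0.0628 over all genes and 0.0442 among genes above the silent-tissue level. Of the 100 brightest genes of each array, 93 were shared by all 3. The sources used here do not say that the replicates were separate transductions or cultures, so these SDs may be technical.

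The 5 marker genes of the line were all above the silent-tissue level. Elane, which encodes neutrophil elastase, gave 14.04, 13.98 and 13.98 on shControl 1, 2 and 3 and ranked 4 among 19938 genes. Mpo, myeloperoxidase, gave 11.25, 11.20 and 11.33 (percentile 94.3). Kit, the receptor for stem cell factor, gave 10.73, 10.76 and 10.76 (percentile 90.6). All 3 genes lay in the top 10% on their means, and the arrays differed by at most 0.13 for Mpo, whose range was the largest of the 3. Spi1, which encodes PU.1, gave 10.33, 10.28 and 10.42 (percentile 86.6), and Hlx gave 10.21, 10.12 and 10.20 (percentile 84.7). Both lay below the top 10% and well above both reference levels on every array. Kit does not stand for progenitor surface genes in general, since 14 of the 20 measured, Cd34 and Flt3 among them, did not pass the silent-tissue level.

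The brightest genes of the profile mixed myeloid granule genes with genes that most growing cells use. Eef1a1 and Eef2, elongation factors of translation, had means of 14.04 ± 0.010 and 13.66 ± 0.0084. Actb, cytoplasmic actin, stood at 13.92 ± 0.012, and Txn1, thioredoxin, at 13.84 ± 0.064. Among the 30 brightest named genes, 7 belong to the granule, monocyte and progenitor lists: Elane, Srgn, Prtn3, Gstm1, Ctsg, F13a1 and Ly6e, a surface protein gene that stood at 13.68 ± 0.016. The remainder included ribosomal proteins (Rpl10, Rps15, Rpl28, Rps6, Rplp1, Rpl21), glycolysis genes (Aldoa, Ldha) and genes of the respiratory chain and ATP synthase (Atp5d, Atp5b, Cox6c). Arhgdib, a gene of blood cells, was also among them at 13.46 ± 0.013. The probe set listed under Baiap2l1 ranked first at 14.09, but its listed accessions match none of the RefSeq transcripts of that gene, and the probe set under the same name that does list one gave 5.52. That signal is therefore not read as Baiap2l1.

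Genes of the primary granules and the promyelocyte stage, called primary granule genes here, were mostly bright. Of 19 genes measured, 18 (94.7%) were above the olfactory level, 15 (78.9%) above the silent-tissue level and 13 (68.4%) lay in the top 10%. The list's median signal was 11.53 against 7.40 over all genes. Calr, Serpinb1a, Ap3s1 and Gstm1 (13.62 ± 0.033) are also counted in this list. The shares and the median were not recounted without them. Prtn3, proteinase 3, gave 13.71, 13.63 and 13.65, and Ctsg, cathepsin G, gave 13.59, 13.58 and 13.58. With Elane, these serine proteases held ranks 4, 11 and 14. Srgn, serglycin, the proteoglycan that packs granule proteases, stood at 13.75 ± 0.060. Lyz2, lysozyme, stood at 13.19 ± 0.036, while its near-identical copy Lyz1 gave 8.40 ± 0.063, and signals of such copies may be shared. Hp, haptoglobin, which is counted in this list but is known in neutrophils as a protein of the secondary granules, had 12.64 ± 0.051. Ctsc, the dipeptidase that activates the granule proteases, had 10.70 ± 0.0061. Ms4a3, a promyelocyte membrane gene, gave 9.57 ± 0.066. The dimmest members were Clec12a at 7.59 ± 0.064, Fcnb at 7.02 ± 0.11 and Prss57 at 6.90 ± 0.12, which passed the olfactory level only, and Nkg7 at 6.27 ± 0.20, which passed neither.

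The promoters of the protease and peroxidase genes are shown because PU.1 and related ETS factors are known to act on granule genes through GAGGAA-type sites. Each run below is the 250 bases before the annotated start, from RefSeq on GRCm38.p6, 5′ to 3′ on the gene's strand, with GAGGAA in capitals. The first base of the motif lies 85 bases before the start of Elane, 95 before that of Prtn3, 247 and 224 before that of Mpo and 216 before that of Ctsg.
Elane, chr10:79886062-79886311 (+ strand): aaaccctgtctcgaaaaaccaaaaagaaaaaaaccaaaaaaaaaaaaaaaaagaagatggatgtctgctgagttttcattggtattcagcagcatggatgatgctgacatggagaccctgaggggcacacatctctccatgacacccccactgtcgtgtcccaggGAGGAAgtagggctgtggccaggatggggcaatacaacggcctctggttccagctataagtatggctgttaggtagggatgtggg
Prtn3, chr10:79879417-79879666 (+ strand): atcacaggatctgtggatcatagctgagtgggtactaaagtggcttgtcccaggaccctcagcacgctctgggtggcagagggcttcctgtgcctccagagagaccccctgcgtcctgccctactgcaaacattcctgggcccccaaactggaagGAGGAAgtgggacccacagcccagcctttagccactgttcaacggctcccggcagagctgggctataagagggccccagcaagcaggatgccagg
Mpo, chr11:87793534-87793783 (+ strand): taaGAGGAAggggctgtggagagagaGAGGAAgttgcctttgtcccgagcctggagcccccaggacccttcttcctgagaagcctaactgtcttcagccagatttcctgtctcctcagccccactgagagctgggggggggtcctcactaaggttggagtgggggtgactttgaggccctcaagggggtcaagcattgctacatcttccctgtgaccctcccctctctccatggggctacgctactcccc
Ctsg, chr14:56102575-56102824 (− strand): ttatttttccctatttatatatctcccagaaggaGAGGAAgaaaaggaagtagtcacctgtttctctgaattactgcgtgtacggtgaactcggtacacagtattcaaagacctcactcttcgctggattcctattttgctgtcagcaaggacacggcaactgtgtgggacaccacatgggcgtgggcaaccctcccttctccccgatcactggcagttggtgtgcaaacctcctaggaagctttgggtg
GAGGAA on either strand was found in at least 1 promoter window (250 bases before to 50 after the start) of 8 of the 15 primary granule genes with a promoter entry (53.3%). Over all 15614 genes with an entry the share was 30.2%, and in the top 10% it was 30.3%. The later granule genes, most of which were dim, held it in 16 of 24 (66.7%), so the letters were no less frequent in that list. Both lists hold bright and dim genes, and bright were not compared with dim members. The C/EBP-type letters TTGCNNAA were in 26.7% of the primary and 37.5% of the later granule promoters against 11.3% of all. TGTGGT, the RUNX type, was in 40% and 29.2% against 16.4%, and AACTG, the MYB type, in 66.7% and 54.2% against 45.2%. None of the 4 motifs contains another. A match describes these letters in the window and is no evidence of binding.

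Later granule genes were mostly dim. Of 27 measured, 10 (37.0%) were above the olfactory level, 8 (29.6%) above the silent-tissue level and 2 (7.41%) in the top 10%, with a median signal of 6.43. Ltf, lactoferrin, gave 5.49, 5.55 and 5.49, and Ngp, the neutrophilic granule protein, gave 5.24, 5.46 and 5.46. Neither passed a reference level on any array. Camp, cathelicidin, gave 7.28, 7.19 and 7.24, above the olfactory level only. The matrix proteinases Mmp8 (4.84 ± 0.21) and Mmp9 (6.50 ± 0.025), the granulocyte surface gene Ly6g (5.71 ± 0.14) and the chemokine receptor Cxcr2 (5.17 ± 0.0085) passed neither level.

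A few members of the same list were bright. Slpi, an inhibitor of elastase, stood at 11.88 ± 0.033, and Lcn2, a siderophore-binding granule protein, at 11.20 ± 0.031. Csf3r, the receptor for granulocyte colony-stimulating factor, gave 10.65 ± 0.039, just below the top 10%. Mcemp1 gave 10.31 ± 0.050. The calprotectin subunits differed from each other, with S100a8 at 9.52, 9.83 and 9.53 on all 3 arrays above the silent-tissue level and S100a9 at 6.25, 6.43 and 6.24, below the olfactory level on each. Itgam, the alpha chain of the integrin Mac-1, was at 7.99 ± 0.091, just above the silent-tissue level. In the plot of granule genes by array the markers of the 3 arrays nearly coincide for the bright genes, and 17 of the 27 later granule genes are not above the olfactory level on all arrays.

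**Figure D1:**
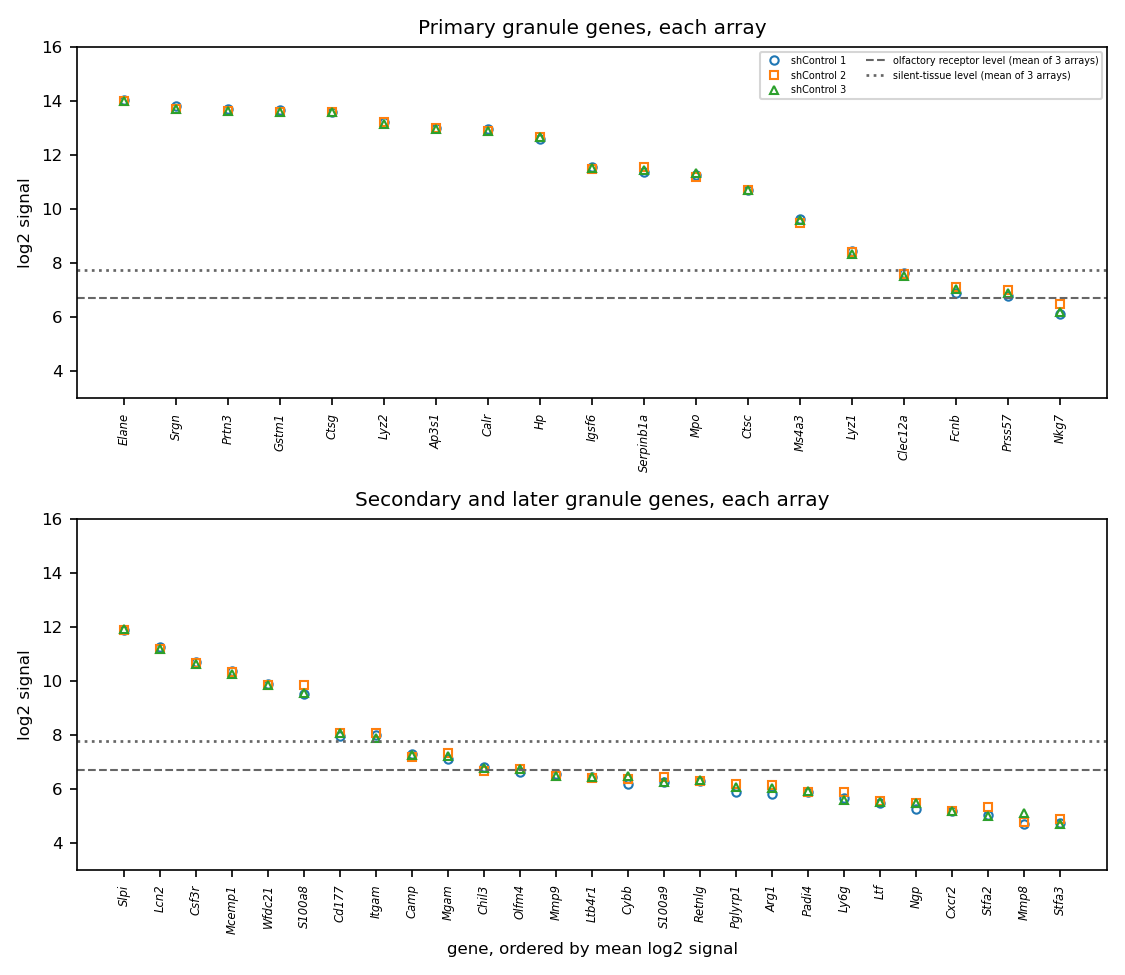
Log2 signal of 19 primary granule genes (top) and 27 later granule genes (bottom) on shControl 1, 2 and 3, with 1 marker per array and genes ordered by mean. The dashed and dotted lines are the olfactory receptor and silent-tissue levels averaged over the 3 arrays, and 15 primary against 8 later granule genes lie above the silent-tissue level on all arrays.

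Monocyte and macrophage genes were split. Of 30 measured, 17 (56.7%) were above the olfactory level, near the 61.4% of all genes, and 10 (33.3%) above the silent-tissue level. F13a1, the A subunit of coagulation factor XIII and a gene of monocytes and their progenitors, gave 13.54, 13.52 and 13.51 and ranked 21. Emb, embigin, followed with 11.67 ± 0.078, Clec4e, a lectin receptor, with 10.59 ± 0.047, and Fcgr3, an Fc receptor, with 9.91 ± 0.090. Csf1r, the receptor that defines the monocyte lineage, gave 6.26, 6.43 and 6.38. All 3 values lay below the olfactory level. Cx3cr1 stood at 7.36 ± 0.11, between the levels, and Cd14 at 8.45 ± 0.062. Adgre1, which encodes the macrophage antigen F4/80, gave 5.28 ± 0.093, and Mrc1 and Msr1, macrophage scavenging receptors, gave 5.61 ± 0.14 and 4.28 ± 0.072. Irf8, a factor of monocyte development, was at 7.63 ± 0.066, between the levels.

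Surface genes of stem and progenitor cells were divided, with a few bright genes and many dim ones. Of 20 measured, 9 (45%) were above the olfactory level and 6 (30%) above the silent-tissue level, shares below those of all genes, while 4 (20%) lay in the top 10%. The 6 were Ly6e, Cd93 (11.39 ± 0.019), Fcgr2b (11.38 ± 0.032), Kit, Fcgr3 and Il3ra. Cd34, a sialomucin of early progenitors, gave 5.90, 6.15 and 6.09, and Flt3, a receptor of lymphoid-primed progenitors, gave 6.95, 6.81 and 6.94. Cd34 was below the olfactory level on all 3 arrays, and Flt3 was above it but below the silent-tissue level. The SLAM family genes Slamf1 (4.94 ± 0.10) and Cd48 (5.43 ± 0.037), the stem cell genes Procr (6.24 ± 0.055) and Tek (5.92, 6.11 and 5.98), and the lymphoid progenitor gene Il7r (5.60 ± 0.092) passed neither level. Ly6a, the gene of Sca-1, and Cd38 had no probe set annotated with their symbol alone. They were not analysed here, since probe sets with several symbols were left out.

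Markers of other lineages were sparse above the silent-tissue level. The highest share was 21.1%, in the endothelial list, against 44.6% of all genes. Above the olfactory level the shares ran from 11.1% (eosinophil) to 62.5% (megakaryocyte), against 61.4% of all genes. In the mast cell and basophil list 4 of 19 genes (21.1%) were above the olfactory level and 2 above the silent-tissue level, which were Mcpt8, a basophil protease gene (9.66 ± 0.062), and Mitf (8.49 ± 0.059). Cpa3, mast cell carboxypeptidase, gave 5.03 ± 0.015, and Fcer1a and Ms4a2, subunits of the IgE receptor, gave 5.01 ± 0.042 and 4.74 ± 0.0085. Of 9 eosinophil genes 1 was above the olfactory level and 0 above the silent-tissue level. Of 17 erythroid genes 8 and 2 were, led by Gfi1b (8.02 ± 0.022) and Tal1 (7.93 ± 0.060). The globin genes had no probe set annotated with their symbol alone, and probe sets with several symbols were left out.

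Among 16 megakaryocyte and platelet genes, 10 were above the olfactory level and 3 above the silent-tissue level. Thbs1, thrombospondin 1, gave 13.25, 13.23 and 13.22, and Nfe2, a transcription factor of megakaryocytes and granulocyte precursors, stood at 11.20 ± 0.018. Both lay in the top 10%. The defining platelet genes Pf4 (5.31 ± 0.033) and Ppbp (4.48 ± 0.050) passed neither level, and Itga2b, the platelet integrin chain, gave 7.30 ± 0.023, between them.

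Of 22 B cell genes, 6 were above the olfactory level and 3 above the silent-tissue level. Those 3 are genes of the surrogate light chain and its relatives: Igll1 (8.96, 8.99 and 9.04), Vpreb3 (8.13 ± 0.14) and Vpreb2 (8.05 ± 0.052), whose copy Vpreb1 gave 7.11 ± 0.072. The defining genes Ms4a1 (5.02 ± 0.049) and Cd79a (5.44 ± 0.20) and the B cell factors Pax5 (6.73 ± 0.12) and Ebf1 (5.58 ± 0.013) did not pass either level on all 3 arrays. Among 25 T and natural killer cell genes 9 passed the olfactory level and 0 the silent-tissue level. The subunits of the T cell receptor complex Cd3d, Cd3e and Cd3g stood at 5.85 ± 0.060, 7.73 ± 0.031 and 4.82 ± 0.050.

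Of 18 dendritic cell genes, 8 passed the olfactory level and 2 the silent-tissue level, which were Tcf4 (10.21 ± 0.043), a transcription factor, and Bst2 (8.72 ± 0.025), an antiviral tether. Itgax, the gene of CD11c, gave 6.21 ± 0.047. Among 19 endothelial genes, 9 and 4 passed. Flt1, a VEGF receptor, gave 11.63, 11.65 and 11.54, in the top 10%. Cdh5, vascular cadherin, stood at 9.59 ± 0.075 and Pecam1, an adhesion molecule of endothelium and blood cells, at 9.63 ± 0.14. The second VEGF receptor gene, Kdr, gave 6.28 ± 0.0089, and the endothelial gene Emcn gave 5.34 ± 0.061, so bright and dim members stood side by side. Of 22 stromal genes 11 and 4 passed, the brightest being Acta2, smooth muscle actin, at 9.58 ± 0.041. Col1a1, Col1a2 and Col3a1, collagens of fibroblasts, gave 7.92 ± 0.12, 7.57 ± 0.068 and 7.63 ± 0.094. In bulk RNA, fewer cells of a type and less RNA per cell cannot be told apart, and the part of any other cell type in these signals was not tested.

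**Figure D2:**
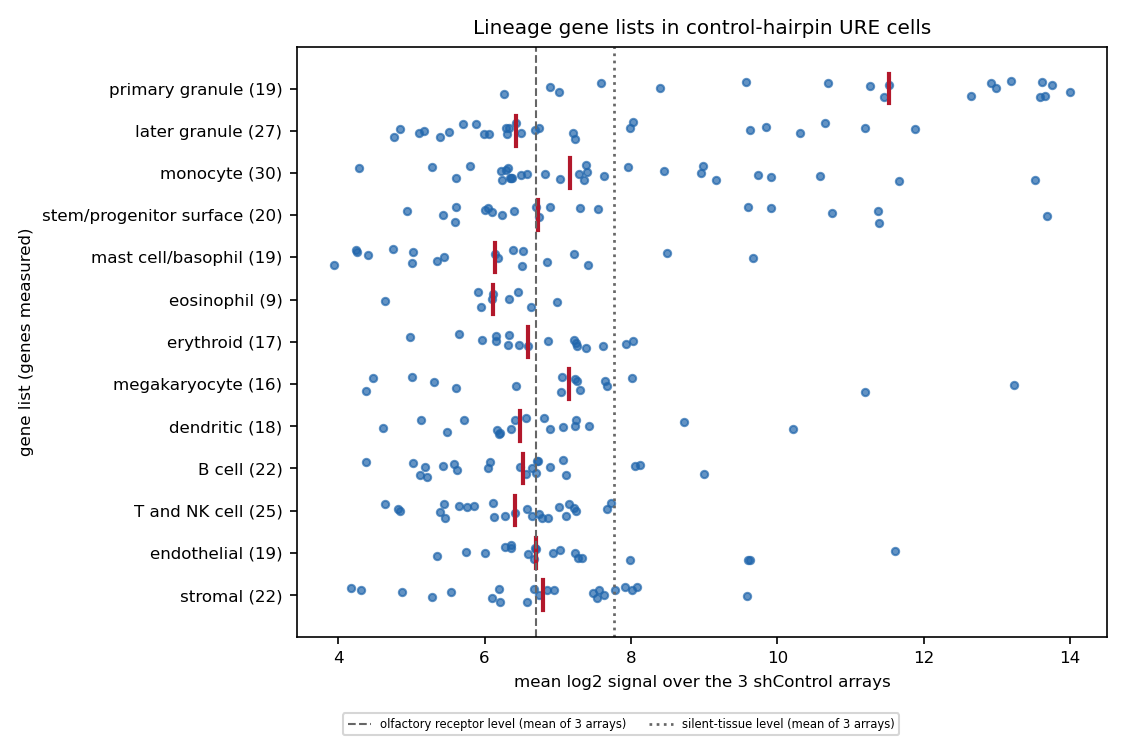
Mean log2 signal over the 3 shControl arrays of every measured gene in 13 lineage lists, with 1 point per gene, the number measured in brackets and the list median as a red bar. Dashed and dotted lines are the olfactory receptor and silent-tissue levels. The primary granule median is 11.53 and the other 12 medians lie between 6.12 and 7.16.

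The lineage plot places these lists side by side. Every lineage list other than that of the primary granules had its median between 6.12 (eosinophil) and 7.16 (monocyte), below the median of all genes at 7.40.

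Transcription factors of the myeloid lineage were broadly present. Of 39 measured, 35 (89.7%) were above the olfactory level, 29 (74.4%) above the silent-tissue level and 9 (23.1%) in the top 10%. Runx1 gave 12.53, 12.54 and 12.59 and Myb 12.54, 12.57 and 12.55, and both encode factors that work from the stem cell to the promyelocyte. Etv6 stood at 12.14 ± 0.034 and Gfi1, a repressor needed for neutrophil development, at 11.86 ± 0.015. Cebpa, which drives granulocyte commitment, gave 11.55, 11.59 and 11.57, while its relatives Cebpb and Cebpd stood at 9.14 ± 0.058 and 9.12 ± 0.029. Cebpe, the factor of the secondary granule stage, gave 7.86, 7.95 and 8.09, just above the silent-tissue level on all arrays. The monocyte factors Klf4 (7.03 ± 0.14) and Egr2 (7.04, 7.07 and 6.89) lay between the levels, and the Spi1 relatives Spib (6.45 ± 0.090) and Spic (5.64 ± 0.11) passed neither.

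Stem and progenitor factors were divided by gene. Of 29 measured, 24 (82.8%) passed the olfactory level, 18 (62.1%) the silent-tissue level and 8 (27.6%) the top 10%. Myc gave 12.79, 12.77 and 12.78. Lyl1 and Lmo2, partners in a complex of progenitor factors, stood at 11.43 ± 0.0061 and 11.30 ± 0.017, with Tal1 of the same complex at 7.93 ± 0.060 and its adaptor Ldb1 at 11.86 ± 0.036. Hlf, a gene of stem cells, gave 9.03 ± 0.034. Gata2 stood at 7.22 ± 0.089, between the levels. Mecom (5.82, 6.10 and 5.95), Meis1 (6.07, 6.29 and 6.12) and Erg (6.32, 6.44 and 6.31), which are linked to stem cell programmes and to leukaemia, were below the olfactory level on every array.

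The HOX cluster genes, of which many acute myeloid leukaemias express HOXA and HOXB members, were dim. Of 37 HOX genes measured 9 were above the olfactory level and 2 above the silent-tissue level, Hoxb3 (8.30, 8.38 and 8.34) and Hoxa4 (7.71, 7.90 and 7.85). Hoxa9, the leukaemia-linked member, gave 6.15, 6.16 and 6.08, and Hoxa10 gave 6.62, 6.72 and 6.61. Hoxa9 was below the olfactory level on each array. By cluster, 3 of 10 HoxA, 4 of 9 HoxB, 0 of 9 HoxC and 2 of 9 HoxD genes passed the olfactory level. Homeobox genes outside the clusters differed from this. Hlx (10.18 ± 0.048), the HOX cofactors Pbx2 (10.14 ± 0.0069) and Pbx3 (9.94 ± 0.043), Hmbox1 (9.91 ± 0.086) and Hhex (8.74 ± 0.040) were all above the silent-tissue level, while the cofactors Meis1 and Meis2 (5.69 ± 0.011) passed neither level. In the plot of the clusters by array, the HoxC panel has no gene above the olfactory level on all 3 arrays.

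**Figure D3:**
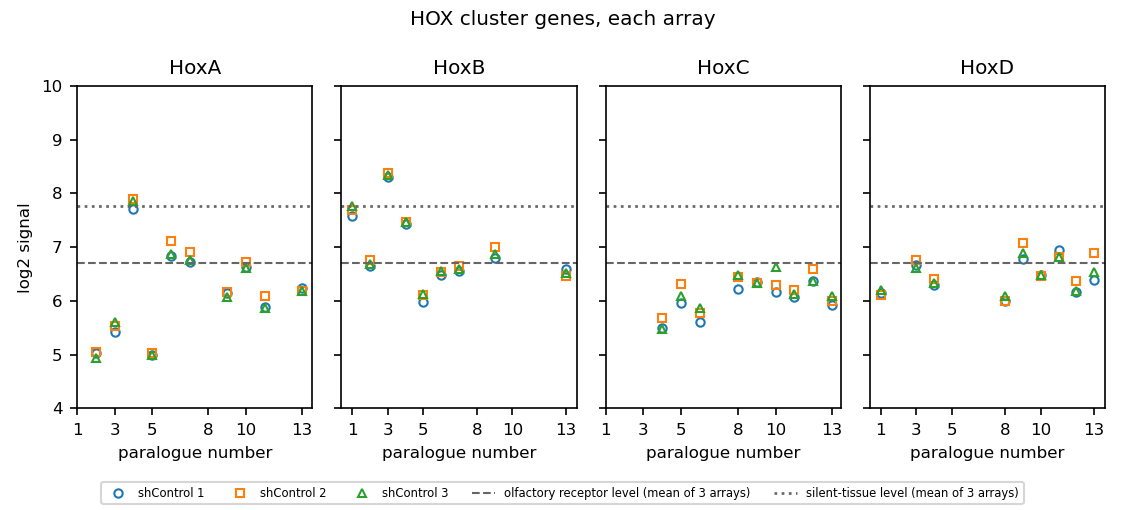
Log2 signal of 37 HOX genes on the 3 shControl arrays, by paralogue number within each of the 4 clusters, with 1 marker per array. Dashed and dotted lines are the olfactory receptor and silent-tissue levels. Hoxb3 and Hoxa4 are the 2 genes above the silent-tissue level on all arrays.

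Cytokine and growth factor receptors included those for the factors supplied to the culture. Of 46 measured, 33 (71.7%) passed the olfactory level, 27 (58.7%) the silent-tissue level and 9 (19.6%) lay in the top 10%. Csf2rb, the signalling chain shared by the interleukin-3 and GM-CSF receptors, gave 11.66, 11.77 and 11.69, and its near-identical copy Csf2rb2 gave 6.76, 7.07 and 6.95. Il3ra, the interleukin-3 binding chain, gave 9.58, 9.59 and 9.65. Csf2ra, the GM-CSF binding chain, stood at 11.38 ± 0.018. Kit, the receptor for stem cell factor, had 10.75 ± 0.016. The interleukin-6 receptor genes Il6ra and Il6st gave 9.76 ± 0.040 and 9.01 ± 0.049, both above the silent-tissue level. Interferon and tumour necrosis factor receptors were bright, with Ifngr1 at 12.95 ± 0.062, Ifnar2 at 11.25 ± 0.013, Tnfrsf1b at 12.09 ± 0.049 and Tnfrsf1a at 11.42 ± 0.045. Igf1r and Insr, the receptors for insulin-like growth factor and insulin, stood at 11.97 ± 0.053 and 10.36 ± 0.038. Notch1 and Notch2 gave 10.42 ± 0.035 and 10.94 ± 0.067.

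Of the receptors, 13 did not pass the olfactory level. They included Il7r, Il2rb (6.13 ± 0.22) and Il2ra (5.39 ± 0.083) of lymphocytes, Il5ra (4.63 ± 0.075) of eosinophils, Csf1r of monocytes, and Lifr (5.36 ± 0.070) and Osmr (5.62 ± 0.064) of the interleukin-6 family. Epor, the erythropoietin receptor, gave 7.26 ± 0.039, and Tgfbr2, needed for transforming growth factor beta, gave 7.27 ± 0.016, both between the levels, while Tgfbr1 stood at 8.95 ± 0.078.

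Ligands were mostly dim. Of 42 measured 14 (33.3%) passed the olfactory level and 5 (11.9%) the silent-tissue level. Those 5 were Tgfb1 (11.76, 11.81 and 11.76), Inhba, which encodes the activin A subunit (10.80, 10.85 and 10.87), the Notch ligand Jag1 (9.50 ± 0.068), Flt3l (8.25 ± 0.044) and Il15 (8.00 ± 0.17). The ligands of the receptors named first were among the dimmest genes measured. Il3 gave 3.98, 4.29 and 4.20, Il6 3.89, 3.81 and 3.85 and Kitl, stem cell factor, 4.88, 4.70 and 4.66. All of these values were below the olfactory level. Csf2, Csf3 and Csf1 stood at 5.74 ± 0.070, 7.02 ± 0.089 and 6.55 ± 0.075, of which Csf3 passed the olfactory level only. The plot of receptors and ligands shows the 27 receptors and 5 ligands above the upper line.

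**Figure D4:**
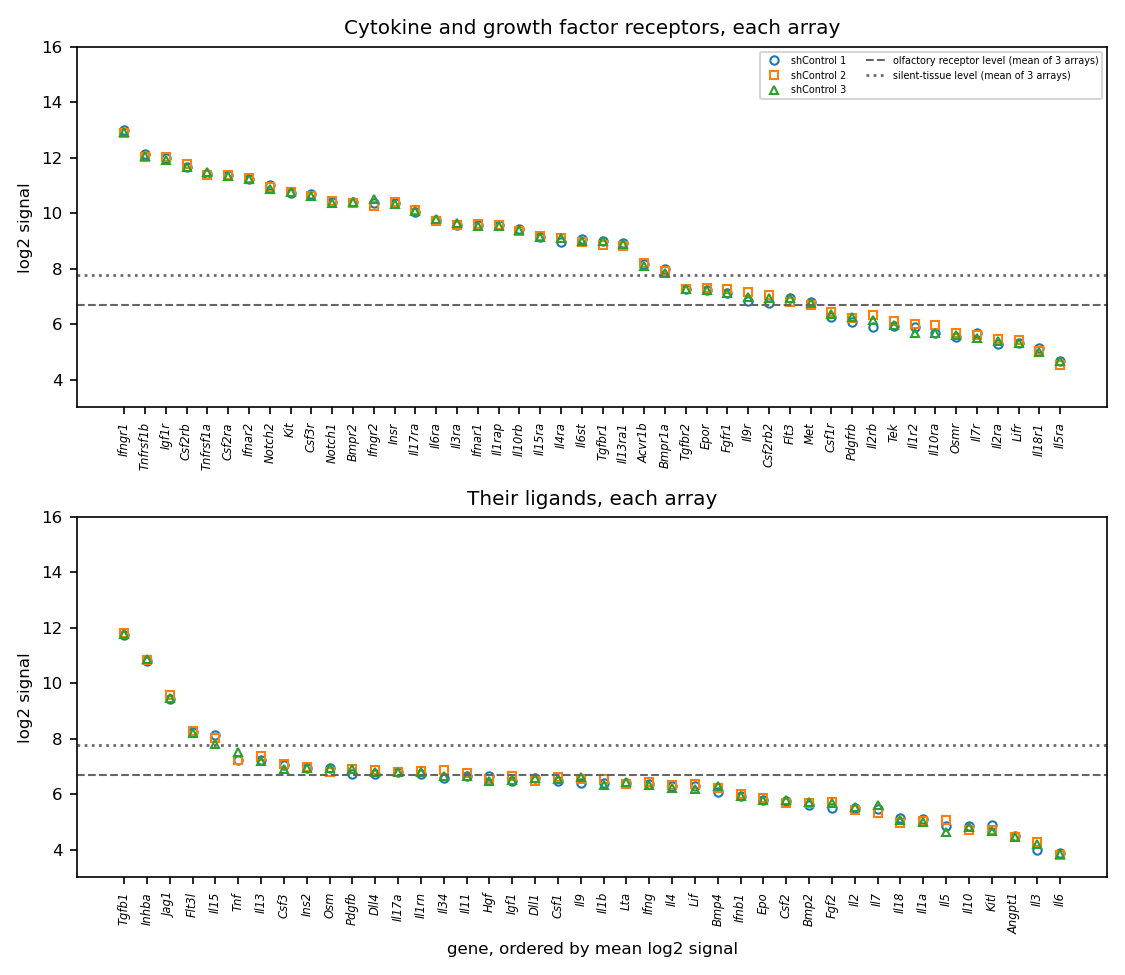
Log2 signal of 46 cytokine and growth factor receptor genes (top) and 42 ligand genes (bottom) on the 3 shControl arrays, with genes ordered by mean and 1 marker per array. Dashed and dotted lines are the olfactory receptor and silent-tissue levels. Il3, Il6 and Kitl lie between 3.81 and 4.88 on every array.

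Genes of the pathways downstream of these receptors were nearly all above the olfactory level, which 61.4% of all genes passed. The silent-tissue level was passed by 44.6% of all genes. No other cell type was compared, so the shares of these lists are not read as particular to the line. In the JAK and STAT list 29 of 29 genes passed the olfactory level and 28 (96.6%) the silent-tissue level. Jak1 and Stat6 stood at 11.46 ± 0.038 and 11.47 ± 0.032, Jak2 at 8.79 ± 0.026, and Stat5a and Stat5b, the main targets of interleukin-3 signalling, at 9.78 ± 0.017 and 10.06 ± 0.037. Their target genes Pim1 and Socs2 gave 10.76 ± 0.063 and 9.72 ± 0.075, and Cish gave 8.60 ± 0.047. Jak3 had no probe set annotated with its symbol alone, and probe sets with several symbols were left out. RNA levels of these genes do not measure whether the pathway is active.

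In the RAS and ERK list 32 of 33 genes (97.0%) passed the olfactory level and 27 (81.8%) the silent-tissue level. Shc1 and Gab2, adaptors at cytokine receptors, stood at 11.40 ± 0.017 and 11.37 ± 0.030, Nras at 10.75 ± 0.026 and Braf at 10.86 ± 0.035. Feedback genes of the pathway differed, with the phosphatase genes Dusp7 at 11.32 ± 0.048 and Dusp6 at 10.50 ± 0.034 and the Sprouty gene Spry4 at 6.79 ± 0.098. The PI3K and mTOR list had 22 of 22 genes above the olfactory level and 21 (95.5%) above the silent-tissue level. Inpp5d, the blood cell phosphatase SHIP1, stood at 11.44 ± 0.026, Akt2 at 11.43 ± 0.032, Pik3r1 at 11.41 ± 0.059 and Akt1 at 11.40 ± 0.013.

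Other signalling lists lay closer to the background. For Toll-like receptors and NF-kB 18 of 23 genes (78.3%) passed the olfactory level and 13 (56.5%) the silent-tissue level. The subunit gene Rela (10.81 ± 0.046) and the adaptor gene Myd88 (10.76 ± 0.052) were in the top 10%. Of the receptors, Tlr4 gave 9.52 ± 0.057, while Tlr2 (7.09 ± 0.061), Tlr1 (5.88 ± 0.13) and Tlr3 (4.98 ± 0.16) did not pass the silent-tissue level. Of 13 SRC-type and other cytoplasmic tyrosine kinase genes, 9 and 7 passed, with Csk (10.77 ± 0.024), Abl1 (10.59 ± 0.074), Ptk2b (10.28 ± 0.032) and Fes (10.00 ± 0.031) the brightest. Of 27 Wnt and Notch genes 21 (77.8%) passed the olfactory level and 12 (44.4%, the share of all genes being 44.6%) the silent-tissue level. Ctnnb1, beta-catenin, stood at 11.82 ± 0.024, and Lgr5, a receptor known from intestinal stem cells, gave 10.58, 10.66 and 10.56. Its 3 values lay close together, just below the top 10% (percentile 89.1).

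Most chemoattractant receptor genes were dim. Of 20 measured 7 (35%) passed the olfactory level and 3 (15%), Cxcr4, S1pr2 and Ccr2, the silent-tissue level. Cxcr4, which holds progenitors in the marrow, gave 11.81, 11.86 and 11.87, in the top 10% on its mean. S1pr2 stood at 9.32 ± 0.093 and Ccr2 at 7.96 ± 0.11, and Ccr1 gave 4.73 ± 0.13. Among 26 adhesion genes 20 (76.9%) and 16 (61.5%) passed. Cd47, the signal against phagocytosis, stood at 12.45 ± 0.029, the tetraspanin gene Cd53 at 12.15 ± 0.060, Itga4, a subunit of the integrin VLA-4, at 11.27 ± 0.054 and Itgb2, the beta chain of the leukocyte integrins, at 10.88 ± 0.0016.

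Replication and mitosis genes were all above the reference levels. Of 31 DNA replication genes 31, and of 28 G2 and M phase genes 28, were above the silent-tissue level, with median signals of 10.18 and 10.57. Pcna, the sliding clamp, gave 12.84, 12.91 and 12.80, and Mcm2, Mcm3 and Mcm4 of the replicative helicase stood at 11.32 ± 0.054, 10.84 ± 0.022 and 10.99 ± 0.029. Of the mitotic genes Ccna2 gave 12.09, 12.10 and 12.08 and Mki67, the proliferation antigen Ki-67, 11.94, 11.94 and 11.81. Aurkb, Ccnb2 and Cdk1 stood at 12.09 ± 0.012, 11.99 ± 0.043 and 11.96 ± 0.027. The G1 genes separated by member. Cdk4 and Cdk6 gave 13.13, 13.09 and 13.11 and 12.74, 12.63 and 12.67, and Ccnd3 11.23, 11.16 and 11.17, whereas Ccnd2 stood at 8.01 ± 0.065 and Ccnd1 at 7.15 ± 0.044, between the levels. The inhibitor gene Cdkn1b gave 10.10 ± 0.053, while Cdkn2a and Cdkn2b, which lie at the Ink4 locus, gave 7.70 ± 0.031 and 7.30 ± 0.12, both between the levels.

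Survival and death genes were mixed in strength. Of 23 measured 22 (95.7%) passed the olfactory level and 19 (82.6%) the silent-tissue level. Bcl2 gave 11.68, 11.72 and 11.71, and Mcl1, a survival protein of myeloid cells, stood at 10.64 ± 0.026. Bcl2l1, which encodes BCL-XL, gave 7.84 ± 0.030, near the silent-tissue level. Casp8, an initiator caspase, stood at 12.07 ± 0.041, Bak1, a pore-forming member, at 11.37 ± 0.032 and Apaf1 at 11.21 ± 0.029. The death gene Bbc3, known as PUMA, lay between the levels at 7.50 ± 0.029. Trp53, Bax and Cdkn1a had no probe set annotated with their symbol alone, and probe sets with several symbols were left out.

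Growth and glycolysis genes were bright. Of 30 Myc network and ribosome biogenesis genes 30 passed the olfactory level and 28 (93.3%) the silent-tissue level. Beside Myc, the nucleolar genes Nop56, Ncl and Ddx21 stood at 12.21 ± 0.029, 11.60 ± 0.048 and 11.42 ± 0.041, while Mycn and Mycl, the relatives of Myc, gave 6.93 ± 0.22 and 6.73 ± 0.064. Of 39 ribosomal protein genes 35 (89.7%) lay in the top 10%. Of 22 glycolysis and hypoxia genes 18 (81.8%) did, with a median signal of 11.87. Hk1 and Hk3, hexokinases, stood at 13.03 ± 0.060 and 11.94 ± 0.035, and Pgk1 and Tpi1 at 13.23 ± 0.020 and 13.08 ± 0.078. Genes known as targets of the hypoxia factor were among them, with Egln3 at 12.90, 12.90 and 12.92, Bnip3 at 12.38, 12.37 and 12.36 and Car9 at 11.51, 11.46 and 11.46. Their ranges over the arrays were 0.019, 0.013 and 0.046. Vegfa, the ligand of Flt1, stood at 11.68 ± 0.053, and Hif1a itself at 11.72 ± 0.039.

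**Figure D5:**
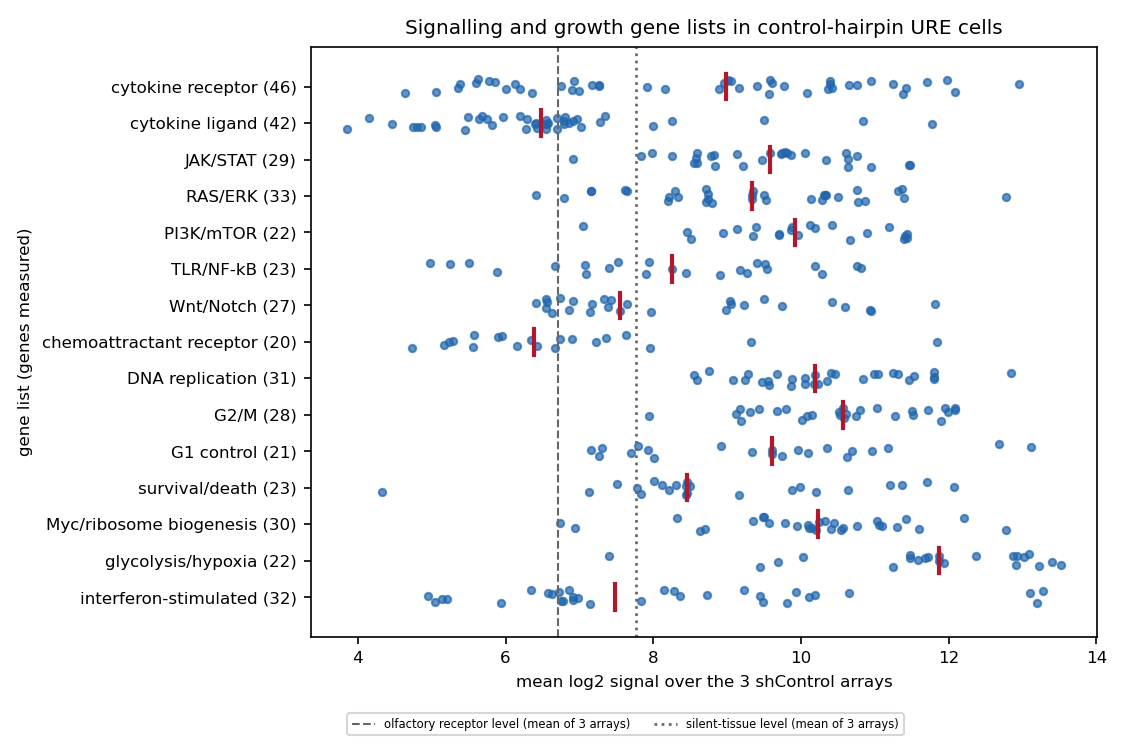
Mean log2 signal over the 3 shControl arrays of every measured gene in 15 signalling and growth lists, with 1 point per gene, the number measured in brackets and the list median as a red bar. Dashed and dotted lines are the olfactory receptor and silent-tissue levels. The medians of the replication, G2/M and glycolysis lists are 10.18, 10.57 and 11.87, and that of the ligands is 6.48.

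The signalling plot sets these lists on a common axis. Receptors span 4.63 to 12.95 with a median of 8.98, ligands span 3.85 to 11.78 with a median of 6.48, and no replication gene lies below 8.55.

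Interferon-stimulated genes did not stand together. Of 32 measured 22 (68.8%) passed the olfactory level and 16 (50%) the silent-tissue level, near the 61.4% and 44.6% of all genes. The list's median signal was 7.49, against 7.40 over all genes. Ifitm3 and Ifitm2, membrane proteins that block viral entry, stood at 13.28 ± 0.029 and 13.10 ± 0.036, and B2m, the light chain of class I histocompatibility molecules, at 13.20 ± 0.11. The genes most used as markers of an interferon response were dim. Ifit1, Ifit2 and Ifit3 gave 5.94 ± 0.19, 6.99 ± 0.097 and 5.14 ± 0.063, and Mx1 gave 5.05 ± 0.049. Class II genes were also dim, with H2-Aa at 5.13 ± 0.15, H2-Ab1 at 5.72 ± 0.029 and the invariant chain Cd74 at 6.36 ± 0.088.

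Genes that are recurrently mutated or fused in human acute myeloid leukaemia, with their cofactors, were widely present. Of 38 measured 37 (97.4%) passed the olfactory level, 34 (89.5%) the silent-tissue level and 18 (47.4%) the top 10%. The splicing factor genes Srsf2 and Sf3b1 stood at 12.62 ± 0.080 and 11.86 ± 0.046, Npm1 at 11.30 ± 0.058, the cohesin gene Rad21 at 11.79 ± 0.054 and Dnmt3a at 8.63 ± 0.11. Those that did not pass the silent-tissue level were Gata2, Wt1 (7.21 ± 0.19), Flt3 and Mecom. These are levels of RNA and say nothing of mutations.

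Variation between the arrays was small. Of the 12248 genes above the olfactory level, 0 had a range over 1 on the log2 scale, 10 over 0.5 and 372 over 0.3. Among the 10 named genes with the largest range, Bpnt2, a phosphatase gene, came first, with 10.05, 10.90 and 10.01, and Malat1, a nuclear RNA, the next, with 11.37, 11.86 and 11.20. For both genes shControl 2 was the high array. The paired circadian repressor genes Bhlhe41 (9.74, 9.52 and 9.23) and Bhlhe40 (8.33, 8.20 and 7.83) were both highest on shControl 1 and lowest on shControl 3. The other 6 of these were Tslp, Rmdn1, Rtraf, Cyb561, Rprml and Zfp455. Of the 372 genes with a range over 0.3, shControl 1 was the farthest from the other two for 189, shControl 2 for 150 and shControl 3 for 33.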

How the data were processed

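RNA of 6 samples was amplified, labelled with biotin and hybridised to Affymetrix arrays, per the labels' protocols, and the 3 shControl arrays were described here. The authors deposited log2 signals per probe set, made with RMA in Affymetrix Power Tools 1.178, per the submitters' processing notes. RMA removes background, makes the arrays' distributions alike and combines the probes of a set. Neither the genome build nor how probe sets were defined is stated in those sources. Of 35556 probe sets, 21789 had 1 symbol in the platform annotation, 1621 several and 12146 none. By Entrez identifier 21698 matched the RefSeq table of GRCm38.p6, with 0 symbols changed. Of 19938 genes, 999 had several probe sets and took the brightest. The listed RefSeq accessions of 3 genes' probe sets belonged to another gene, and 754 genes' probe sets listed none.

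No test was run, since only 1 group was described. Lists were summarised by members above the 95th percentile of olfactory receptor genes on all 3 arrays, and by those above that of silent-tissue genes. They were also summarised by the top 10% and by medians. Over all genes the shares were 61.4%, 44.6% and 10%, and the median signal was 7.40. These values are not repeated beside every list. Of 1127 entries in 37 lists, 1014 were measured. The members and lists were chosen with earlier results of these data known. Genes that could be named were set by a rule: the 5 markers, the 30 brightest, the first 3 and 4 brightest of each list, all receptors and ligands, and the 10 with the largest range. The text does not name every gene that this rule covers, and the rule does not set which were left out. Predicted, olfactory and small RNA genes were passed over. Any other gene was chosen after its values were seen. The counting code was tested on simulated data. The alternatives were other reference levels, other choices of probe set, probe sets with several symbols, the median over arrays, centring, a second quantile normalization and leaving out each array. Python 3.11.15, numpy 2.4.6, pandas 2.3.3 and matplotlib 3.10.9 were used. The number of arrays limits the precision.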

Additional observations from a re-analysis of the deposited data

Results flagged for a closer look

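A signal lay outside the main measurement. Of the 12146 probe sets that the annotation table does not list under any gene, 5199 (42.8%) were above the olfactory level on all 3 arrays. They were left out because their genes are not named in the sources used here.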

How the results depend on the processing

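The count of genes above the reference stayed within 1.5 times of 12248 in all 11 alternatives. Centring the arrays on their medians shifts signals and reference levels alike. It could not change any count or percentile, so its entries among those that stayed, here and below, are no check. The silent-tissue alternative is the stricter level already used in the Results. Of the list counts 370 stayed within 1.5 times and 26 moved, all 26 by a higher reference level. At the 99th percentile of the olfactory receptor genes the counts were 11 for monocyte, 2 for mast cell and basophil, 0 for eosinophil, 3 for erythroid, 5 for megakaryocyte, 3 for B cell, 2 for T and NK cell, 2 for dendritic, 4 for endothelial, 10 for homeobox, 5 for ligands and 4 for chemoattractant receptors. At the silent-tissue level they were 10 for monocyte, 2 for mast cell and basophil, 0 for eosinophil, 2 for erythroid, 3 for megakaryocyte, 3 for B cell, 0 for T and NK cell, 2 for dendritic, 4 for endothelial, 4 for stromal, 8 for homeobox, 5 for ligands, 12 for Wnt and Notch and 3 for chemoattractant receptors. Of the percentiles of the 5 markers 37 moved by less than the replicate SD and 8 by more. With probe sets of a gene averaged Kit stood at 91 and Hlx at 85.3. With the dimmest probe set Kit, Hlx and Mpo stood at 91.1, 85.5 and 94.7. The other moves were of Elane, which stayed at 100 after rounding. Of the medians of signal percentile 261 moved by less than the replicate SD and 63 by more. With probe sets of a gene averaged they became 96.1 for primary granule, 37.8 for progenitor surface, 28.2 for B cell, 37.4 for endothelial, 66 for myeloid and 66 for stem factors, 69.3 for receptors, 32.5 for ligands, 72.7 for JAK and STAT, 82.3 for PI3K, 60.3 for NF-kB, 71.4 for adhesion, 74.4 for G1, 62.6 for survival, 85.8 for Myc and 97.9 for ribosomal proteins. With the dimmest probe set they became 96.2 for primary granule, 47 for monocyte, 38.4 for progenitor surface, 14 for mast cell and basophil, 46.9 for megakaryocyte, 28.7 for B cell, 38 for endothelial, 66.6 for stem factors, 33.5 for homeobox, 69.8 for receptors, 33 for ligands, 73.3 for JAK and STAT, 74.8 for RAS, 82.6 for PI3K, 62.4 for SRC type, 60.9 for NF-kB, 72 for adhesion, 89.3 for G2/M, 75 for G1, 63.2 for survival, 86 for Myc, 97.1 for ribosomal proteins, 97.1 for glycolysis, 51.5 for interferon and 90 for leukaemia genes. Adding probe sets with several symbols gave 95.7 for primary granule, 48.5 for monocyte, 32.3 for ligands, 99 for ribosomal proteins and 44.4 for interferon. The median over arrays gave 37.9 for progenitor surface, 33.6 for B cell, 37.7 for endothelial and 31.7 for ligands. The cause was not tested. Leaving out each array in turn gave 24.1 to 25.2 for mast cell and basophil, 32.6 to 33.4 for B cell, 36.7 to 38.1 for endothelial, 66.5 to 66.9 for myeloid factors, 31.8 to 32.6 for homeobox, 31.5 to 32.3 for ligands, 81.5 to 82.5 for PI3K and 84.7 to 85.1 for replication. No paired analysis was possible because only 1 group was described and the results come from no test. The main limits are the reference levels, which leave genes between 6.66 and 7.82 undecided (3351 genes passed the lower level only), the lack of a detection call and the dependence of each signal on its probes.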

Other observations

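Sex-linked genes were dim with 1 exception. Of 8 measured, the X inactivation RNA Xist gave 5.32 ± 0.16 and 6 of the 7 Y-linked genes passed neither level, with Kdm5d at 5.27 ± 0.10, Uty at 4.62 ± 0.14 and Eif2s3y at 3.82 ± 0.12 (SD, n = 3). Sry, the testis-determining gene, gave 8.09 ± 0.094 (SD, n = 3), above the silent-tissue level on all 3 arrays. The part of its probes in this signal was not tested.

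Some measured genes of one process lay far apart. Rplp2 passed the olfactory level only, at 7.60 ± 0.081 (SD, n = 3), while Rplp0 and Rplp1 of the same ribosomal stalk stood at 13.12 ± 0.018 and 13.51 ± 0.061 (SD, n = 3). Fcer1g, the signalling chain shared by Fc receptors, gave 6.52 ± 0.0043 (SD, n = 3), below the olfactory level, while its partner Fcgr3 stood at 9.91 ± 0.090 (SD, n = 3). Slc2a1 and Slc2a3, both glucose transporters, gave 11.87 ± 0.12 and 7.41 ± 0.024 (SD, n = 3). Such gaps compare different probe sets, and the part of the probes in them was not tested.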
